A study of Mus musculus with 6 samples.

Results

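Prmt1, Shcbp1 and Snrk are 3 of the 29510 gene symbols in the deposited transcript table. Each was picked because 1 of its annotated transcripts lay near 0 in all control libraries and clearly above 0 in all cKO libraries. The cKO group is 3 libraries of Nf2f/f;Prx1-CRE mouse chondrocytes (cKO 1 to 3), and the control group is 3 libraries of Nf2f/f chondrocytes (control 1 to 3). Both groups carry floxed Nf2 alleles and were grown as primary cultures that were not differentiated. Prx1-Cre is active in limb bud mesenchyme, so cells of other origin keep Nf2. The control has no Cre, so loss of Nf2 and presence of Cre cannot be told apart here. The labels give no age and do not state whether the libraries of a group are from different mice. The values are FPKM, fragments scaled by transcript length and library total, so they give no sequencing depth and no counting interval. Because the 3 genes were chosen from this same contrast, their levels and shares are given as a description, with no test.

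Prmt1 encodes the main enzyme that places asymmetric dimethyl marks on arginines of histones and RNA-binding proteins. Shcbp1 encodes a protein that binds the adaptor SHC1 and acts with the centralspindlin complex at the midbody of dividing cells. Snrk encodes a serine/threonine kinase of the AMPK-related family, which the kinase LKB1 activates. A gene makes several transcripts when splice sites are chosen differently. A donor site can move within an exon, an intron can be kept, or an exon can be skipped, and the 3 switched transcripts are 1 example of each.

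The Prmt1 gene (ENSMUSG00000109324, chromosome 7, minus strand) has 8 transcripts in the table. Its switched transcript, ENSMUST00000209056 (chr7:44979383-44986316, mm10), is annotated as protein_coding with 5 exons and 490 bases, and GENCODE M21 marks both of its ends as not found and gives it transcript support level 5, its weakest. All 490 of its bases also lie in ENSMUST00000207370 and in ENSMUST00000107843, the 2 most abundant Prmt1 transcripts. Within its span it differs from ENSMUST00000207370 by 9 coding bases at the end of exon 3 (chr7:44981738-44981746), where its splice donor lies earlier. It has no exonic base of its own and 1 splice junction of its own among all annotated Prmt1 transcripts. The stretch around that junction is shown because inside its span nothing else sets the transcript apart from ENSMUST00000207370. ENSMUST00000107843 has, besides those 9 bases, a 54-base exon within the span that the switched transcript lacks. In the first line the capitals mark the 9 bases, and in the second they mark the bases on either side of the new junction. Both lines are sense to the gene and come from the GENCODE M21 transcripts.
Prmt1 ENSMUST00000207370: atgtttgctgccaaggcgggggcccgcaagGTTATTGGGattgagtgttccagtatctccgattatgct
Prmt1 ENSMUST00000209056: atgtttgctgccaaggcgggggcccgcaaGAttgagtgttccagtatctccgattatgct
The omitted stretch starts at the first position of a codon, so 3 codons are left out and the reading frame is kept. The omitted bases begin with GT, the first letters of most introns.

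The Shcbp1 gene (ENSMUSG00000022322, chromosome 8, minus strand) has 5 transcripts in the table. Its switched transcript, ENSMUST00000208856 (chr8:4736230-4779551, mm10), is annotated as retained_intron with 12 exons and 2365 bases. It keeps the intron between exons 7 and 8 of the main coding transcript ENSMUST00000022945, 466 bases at chr8:4748826-4749291, which make up 19.7% of its length. Those 466 bases lie in no other annotated Shcbp1 transcript, and the transcript has no junction of its own. Both ends of the intron and the spliced junction are shown because reads over them separate the transcripts. They are sense to the gene, from the GENCODE M21 transcripts. Capitals mark the intron in the first pair of lines and the joined bases in the last line.
Shcbp1 start of the retained intron: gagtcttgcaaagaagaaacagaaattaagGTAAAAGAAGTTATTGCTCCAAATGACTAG
Shcbp1 end of the retained intron: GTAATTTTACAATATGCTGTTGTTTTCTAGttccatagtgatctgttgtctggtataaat
Shcbp1 ENSMUST00000022945 spliced: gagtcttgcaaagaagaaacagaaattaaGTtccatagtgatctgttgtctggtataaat
The intron starts with GT and ends with AG. Read in frame from the start codon of ENSMUST00000022945, the first stop codon of the switched transcript, TAG, begins at base 28 of the intron. It follows 373 codons, against 668 codons before the stop of ENSMUST00000022945, and 5 exon junctions lie downstream of it.

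The Snrk gene (ENSMUSG00000038145, chromosome 9, plus strand) has 11 transcripts in the table. Its switched transcript, ENSMUST00000120173 (chr9:122117303-122169702, mm10), is annotated as protein_coding with 6 exons and 4758 bases. It differs from ENSMUST00000118886, which has 7 exons and 4811 bases, by skipping a 50-base exon at chr9:122131893-122131942 and by 3 bases at the start. That exon lies upstream of the start codon. Both transcripts have the same 2244 coding bases, so the annotated protein of 748 residues is the same. All bases of ENSMUST00000120173 are shared with other Snrk transcripts, and 1 junction is its own.

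**Figure D1:**
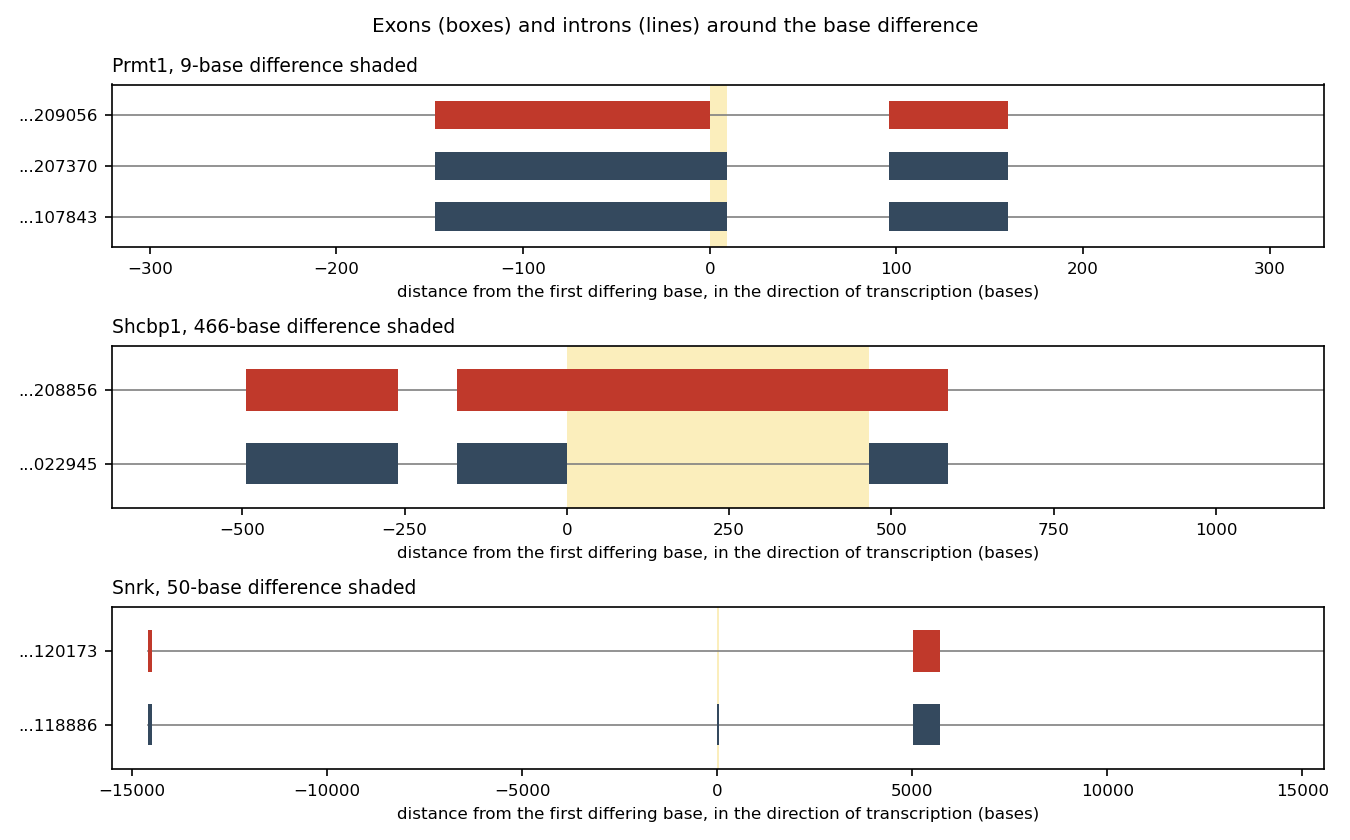
Exons (boxes) and introns (lines) of the switched transcripts (red, top row of each panel) and the transcripts they are compared with (dark rows), with distance in bases from the first differing base. The shaded parts are the 9 bases omitted in Prmt1, the 466 intron bases kept in Shcbp1 and the 50-base exon skipped in Snrk.

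Prmt1 ENSMUST00000209056 stood at 13.1, 17.8 and 14.1 FPKM in cKO 1 to 3 and was listed at 0 in control 1, 2 and 3. It held 11.7, 14.9 and 11.5% of the gene's FPKM in cKO 1 to 3. No fold is given against a listed 0, since 1086 of the 20911 transcripts that average 1 FPKM or more (5.19%) are listed at 0 in at least 1 library.

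The longer Prmt1 transcripts were also higher in cKO. ENSMUST00000107843, the form with 11 exons, stood at 54.4, 50.2 and 59.8 FPKM in cKO 1 to 3 and at 34.3, 38.5 and 43.8 FPKM in control 1 to 3. ENSMUST00000207370, the form with 10 exons, stood at 39.0, 45.1 and 42.8 FPKM in cKO 1 to 3 and at 36.0, 30.1 and 35.3 FPKM in control 1 to 3. The groups did not overlap for either form, and no Prmt1 transcript was below control in all cKO libraries.

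The gene sum of Prmt1 was 112, 119.6 and 122 FPKM in cKO 1 to 3, against 74.8, 74.0 and 85.8 FPKM in control 1 to 3. The means were 118 ± 4.90 and 78.2 ± 6.57 FPKM in cKO and control (SD, n = 3 each), a ratio of 1.51. Prmt1 was the 1 gene of the 3 whose gene sums did not overlap between groups, as also holds for 35.1% of all 14080 genes that average 0.5 FPKM or more. Without ENSMUST00000209056 the sums were 103 ± 4.33 FPKM in cKO and 78.2 ± 6.57 FPKM in control, a ratio of 1.32.

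ENSMUST00000107843 contains a 54-base coding exon (chr7:44984080-44984133) that ENSMUST00000207370 and the switched transcript skip. In human PRMT1, splicing of the exons near the start gives isoforms that differ in where in the cell they are found. Transcripts with this exon made up 51.1, 44.6 and 51.4% of the FPKM of transcripts that include or skip it in cKO 1 to 3, and 49.1, 56.5 and 55.4% in control 1 to 3. These ranges overlapped. The ratio of ENSMUST00000107843 to ENSMUST00000207370 was 1.30 ± 0.163 in cKO and 1.16 ± 0.179 in control (SD, n = 3 each), a difference within the spread of the libraries. This ratio leaves out the switched transcript, which the shares above count among the forms that skip the exon.

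The other 5 Prmt1 transcripts overlapped between groups. The retained_intron transcript ENSMUST00000207735 was the highest of them, at 3.75 ± 0.254 FPKM in cKO and 3.39 ± 0.539 FPKM in control. The nonsense_mediated_decay transcript ENSMUST00000207522, of a type predicted to be broken down by the cell, stood at 0.102, 0.425 and 0.373 FPKM in cKO 1 to 3 and at 0.465, 0.606 and 0.193 FPKM in control 1 to 3. The retained_intron transcript ENSMUST00000207702 held a mean share of 1.06% in cKO and 1.56% in control, and ENSMUST00000208897 ranged from 0.510 to 0.577 FPKM in cKO and from 0.257 to 0.832 FPKM in control. The protein_coding ENSMUST00000208938 was listed above 0 in 1 library, cKO 2, at 0.107 FPKM. Of the main forms, ENSMUST00000107843 held 46.5 ± 3.93% of the gene in cKO and 49.6 ± 3.35% in control, and ENSMUST00000207370 held 35.9 ± 1.61% in cKO and 43.3 ± 4.19% in control (SD, n = 3 each).

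Shcbp1 ENSMUST00000208856, the form with the kept intron, stood at 8.05, 7.82 and 8.25 FPKM in cKO 1 to 3. In control 1 to 3 it stood at 0.316, 0.282 and 0.241 FPKM. Every cKO library lay far above every control library, and the ratio of the means was 28.7. Its share of the gene was 39.8, 41.5 and 36.9% in cKO 1 to 3, against 1.60, 1.47 and 1.13% in control 1 to 3.

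The main coding form ENSMUST00000022945 stood at 11.7, 10.6 and 13.6 FPKM in cKO 1 to 3 and at 18.6, 18.4 and 20.3 FPKM in control 1 to 3. All 3 cKO libraries were below all 3 control libraries, and the ratio of the means was 0.627. Its mean share of the gene was 58.4 ± 2.40% in cKO and 95.1 ± 0.822% in control (SD, n = 3 each).

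The gene sum of Shcbp1 was 20.2, 18.8 and 22.4 FPKM in cKO 1 to 3 and 19.7, 19.2 and 21.3 FPKM in control 1 to 3. These groups overlapped, with means of 20.5 ± 1.78 FPKM in cKO and 20.1 ± 1.11 FPKM in control. The kept-intron form and the main form together came to 20.0 ± 1.75 FPKM in cKO and 19.4 ± 1.02 FPKM in control. In Shcbp1, then, the level of 1 transcript was high where that of another was low, at a gene sum that differed by less than its spread. If the coding transcript alone is counted, the log2 change of the gene is -0.66 in place of 0.02.

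The other 3 retained_intron transcripts of Shcbp1 were not high in cKO. Their summed level was 0.467, 0.406 and 0.469 FPKM in cKO 1 to 3 and 0.820, 0.511 and 0.772 FPKM in control 1 to 3, lower in every cKO library. Of those, ENSMUST00000207665 stood at 0.334 ± 0.00763 FPKM in cKO and 0.472 ± 0.0288 FPKM in control (SD, n = 3 each), the 1 form of the 3 with separate groups. ENSMUST00000208381 ranged from 0.0732 to 0.127 FPKM in cKO and from 0.0597 to 0.313 FPKM in control, and ENSMUST00000207725 was listed at 0 in cKO 2 and 3 and in control 2 and 3.

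Snrk ENSMUST00000120173 stood at 3.22, 2.90 and 2.91 FPKM in cKO 1 to 3 and was listed at 0 in control 1, 2 and 3. It made up 50.9, 49.9 and 51.9% of the gene in cKO 1 to 3. ENSMUST00000118886, the form with the 50-base exon, showed the opposite order. It was listed at 0 in cKO 1 and cKO 3 and at 0.815 FPKM in cKO 2, against 2.29, 2.31 and 2.34 FPKM in control 1 to 3. The control values are close together, and cKO 2 is the only cKO library in which both forms are listed above 0.

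The gene sum of Snrk was 6.32, 5.82 and 5.62 FPKM in cKO 1 to 3 and 7.54, 5.06 and 5.68 FPKM in control 1 to 3. Control 1 was the highest library and control 2 the lowest, so the cKO range lay inside the control range. The means were 5.92 ± 0.358 FPKM in cKO and 6.09 ± 1.29 FPKM in control (SD, n = 3 each). The sum of the skipping form and the including form was 3.28 ± 0.405 FPKM in cKO and 2.31 ± 0.0295 FPKM in control, and the other 9 transcripts together held 2.64 ± 0.502 FPKM in cKO and 3.78 ± 1.31 FPKM in control.

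Among those 9, ENSMUST00000134949 varied most within a group. It stood at 1.43, 0.731 and 1.02 FPKM in cKO 1 to 3 and at 2.22, 0.0195 and 1.98 FPKM in control 1 to 3, so control 2 nearly lacked it. ENSMUST00000119215 stood at 1.09 ± 0.128 FPKM in cKO and 1.16 ± 0.323 FPKM in control. The short processed_transcript ENSMUST00000215432, like ENSMUST00000118886, was below control in all cKO libraries, at 0.158 ± 0.00511 FPKM in cKO and 0.270 ± 0.0369 FPKM in control (SD, n = 3 each). The remaining 6 Snrk forms overlapped between groups, and each held a mean share of at most 2.17% in cKO and 5.41% in control. The highest single value among them was 0.664 FPKM, for the retained_intron ENSMUST00000131169 in control 2. ENSMUST00000145384 was listed above 0 in control 1 alone, at 0.542 FPKM.

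**Figure D2:**
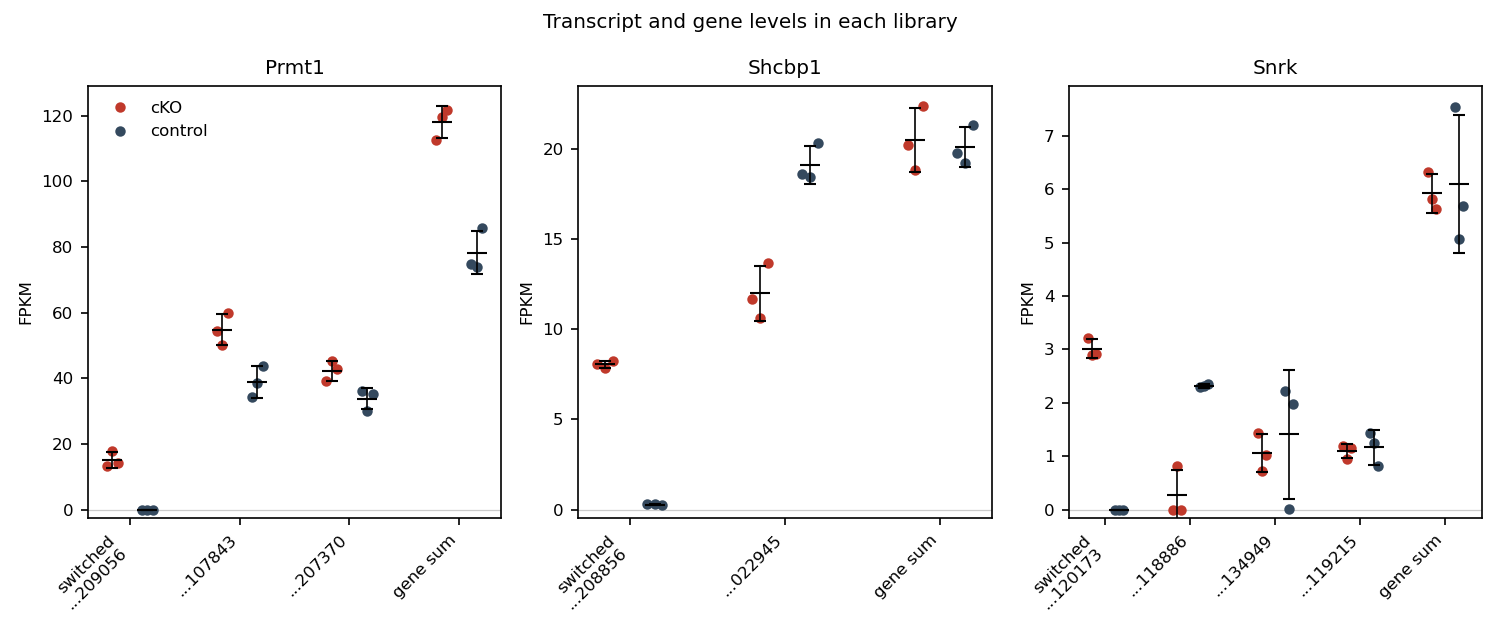
FPKM of the switched transcript, the other main transcripts and the gene sum of Prmt1, Shcbp1 and Snrk, with 1 point per library, the mean as a bar and the SD as whiskers (n = 3; red, cKO; dark, control). Labels give the last digits of each transcript ID. The Prmt1 sum is separate between groups, at 118 and 78.2 FPKM in cKO and control, while the Shcbp1 and Snrk sums overlap.

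Counted over all transcripts of a gene that include or lack the differing part, the splicing differences were as follows. These are shares of the authors' transcript estimates, and the reads over the junctions and the intron were not analysed here. Transcripts that skip the 50-base exon of Snrk held 53.2, 53.2 and 53.0% of the FPKM in cKO 1 to 3 and 0, 4.29 and 1.65% in control 1 to 3. The cKO libraries differed by an SD of 0.103 percentage points, with 2 skipping and 6 including transcripts in the sum. The transcript that keeps the Shcbp1 intron held 40.8, 42.5 and 37.7% of the FPKM in cKO 1 to 3 and 1.67, 1.51 and 1.17% in control 1 to 3. The transcript with the earlier Prmt1 donor held 12.1, 15.4 and 11.9% of the FPKM in cKO 1 to 3 and is listed at 0 in the controls. By this measure the forms without the switch made up the larger part in every cKO library for Prmt1 and Shcbp1, and the smaller part for Snrk.

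**Figure D3:**
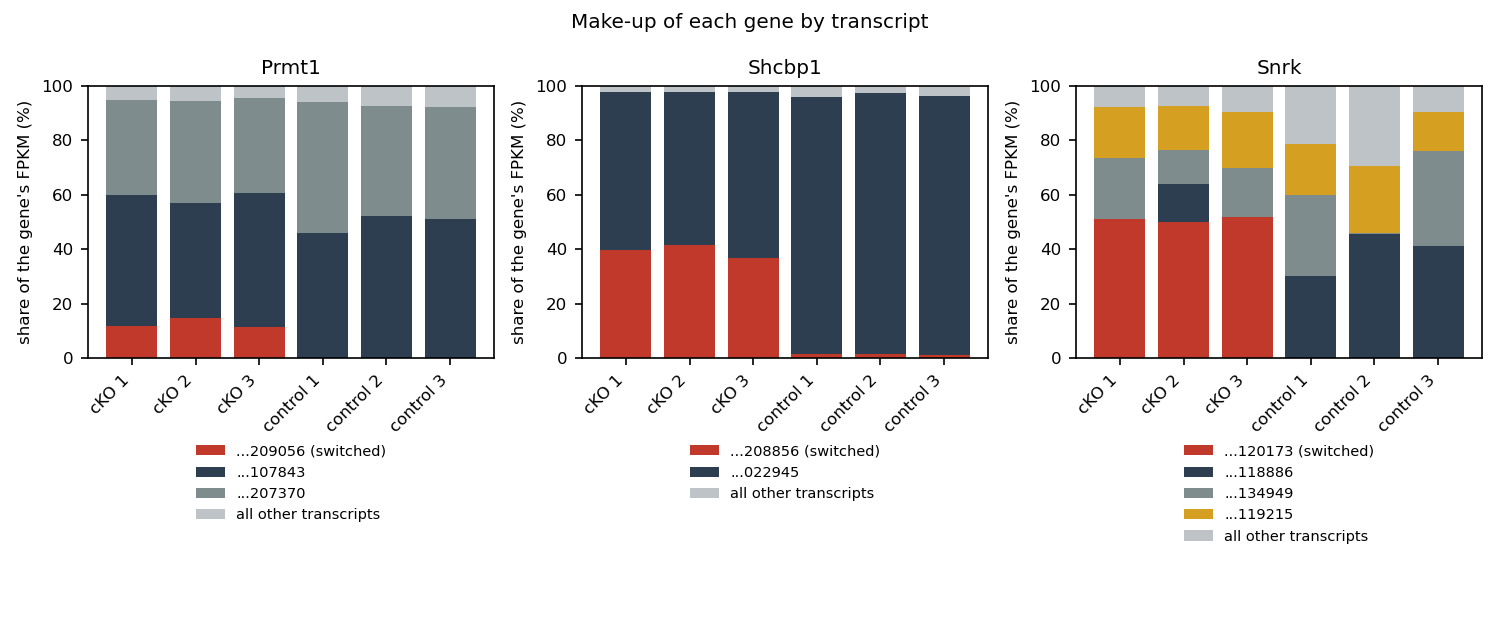
Share of each gene's FPKM by transcript in every library, stacked to 100%, with the switched transcript in red at the base. The red part reaches 11.5 to 14.9% in Prmt1, 36.9 to 41.5% in Shcbp1 and 49.9 to 51.9% in Snrk in the cKO libraries, and at most 1.60% in the control libraries.

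Shares of FPKM count molecules, and a short transcript contributes few fragments. Weighted by length, as shares of fragments, the difference between cKO and control was 3.96 percentage points for the 490-base Prmt1 transcript, 40.0 for the Shcbp1 transcript and 76.3 for the Snrk transcript. The differences in FPKM share were 12.7, 38.0 and 50.9 points, in the same order of genes.

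Over all 24 transcripts of the 3 genes, 5 lay above control in every cKO library, 4 lay below, and 15 overlapped. The 5 include the 3 switched transcripts, which were picked for lying above control. The others above control are Prmt1 ENSMUST00000107843 and ENSMUST00000207370. Of all 85882 transcripts in the table, 7.03% lay above and 6.13% below. That base holds many low transcripts, since only 26798 reached 1 FPKM in any library. Transcripts listed at 0 throughout cannot separate, so the 24 and the base are not at like levels. Of the 24, 12 averaged 0.5 FPKM or more. The 24 comprise 11 protein_coding, 9 retained_intron, 3 processed_transcript and 1 nonsense_mediated_decay transcript. GENCODE M21 holds 6 further Prmt1 transcripts, 2 of Shcbp1 and 1 of Snrk, for which no values are given here.

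The pattern itself was rare in the table. With a limit of 0.1 FPKM or less in every control library and 1 FPKM or more in every cKO library, 19 of 85882 transcripts had it (0.0221%), among them the Prmt1 and Snrk transcripts but not that of Shcbp1, whose highest control value was 0.316 FPKM. The reverse, at most 0.1 FPKM in every cKO library and at least 1 FPKM in every control library, was found in 12 (0.014%). Only the 26798 transcripts that reached 1 FPKM in any library could meet either rule. With a limit of 0.5 FPKM, which takes in Shcbp1, the counts were 37 (0.0431%) and 34 (0.0396%). By the lowest cKO value, Prmt1 ENSMUST00000209056 had rank 1 of the 19 and Snrk ENSMUST00000120173 rank 3. Both were picked for this pattern from these same values, so their ranks are a description only. The libraries also differed in how many transcripts are listed at 0, with 18186 to 19494 in cKO and 20808 to 21421 in control. The part of that difference in the pattern was not tested.

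Of the 19 transcripts, 17 are protein_coding and 2 nonsense_mediated_decay, and 18 belong to genes with a mean sum of at least 2 FPKM in both groups. Of the 12 with the reverse pattern, 3 do, and the other 9 belong to genes at or under 0.3 FPKM in cKO, among them the intestinal genes Zg16, Tff3 and Lypd8 and the immunoglobulin gene Igkc. Whether the control libraries hold RNA of another tissue or sample was not tested. With the limit of 0.5 FPKM these counts are 34 and 16. Outside the 3 genes, Apbb2 ENSMUST00000159786 had the highest minimum, at 8.12, 4.16 and 8.47 FPKM in cKO 1 to 3 and listed at 0 in control. Apbb2 encodes an adaptor that binds the amyloid precursor protein. It was followed by transcripts of Ppat, an enzyme of purine synthesis, Btbd6, Celf2 and Cybc1, with lowest cKO values of 2.82, 2.06, 2.01 and 1.92 FPKM.

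Celf2, an RNA-binding regulator of splicing, had a transcript in each direction. ENSMUST00000100429 stood at 2.01, 2.34 and 2.23 FPKM in cKO 1 to 3 and at 0.0396, 0.0136 and 0.0901 FPKM in control 1 to 3. ENSMUST00000002176 was listed at 0 in cKO 1 to 3 and stood at 1.08, 1.16 and 1.23 FPKM in control 1 to 3. In Rsrc1, which encodes a splicing-related protein, and Rnase4, a ribonuclease gene, 1 transcript each showed the reverse pattern at similar gene sums. Rsrc1 had 15.9 FPKM in cKO and 16.0 FPKM in control, and Rnase4 had 13.9 FPKM in cKO and 14.5 FPKM in control.

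**Figure D4:**
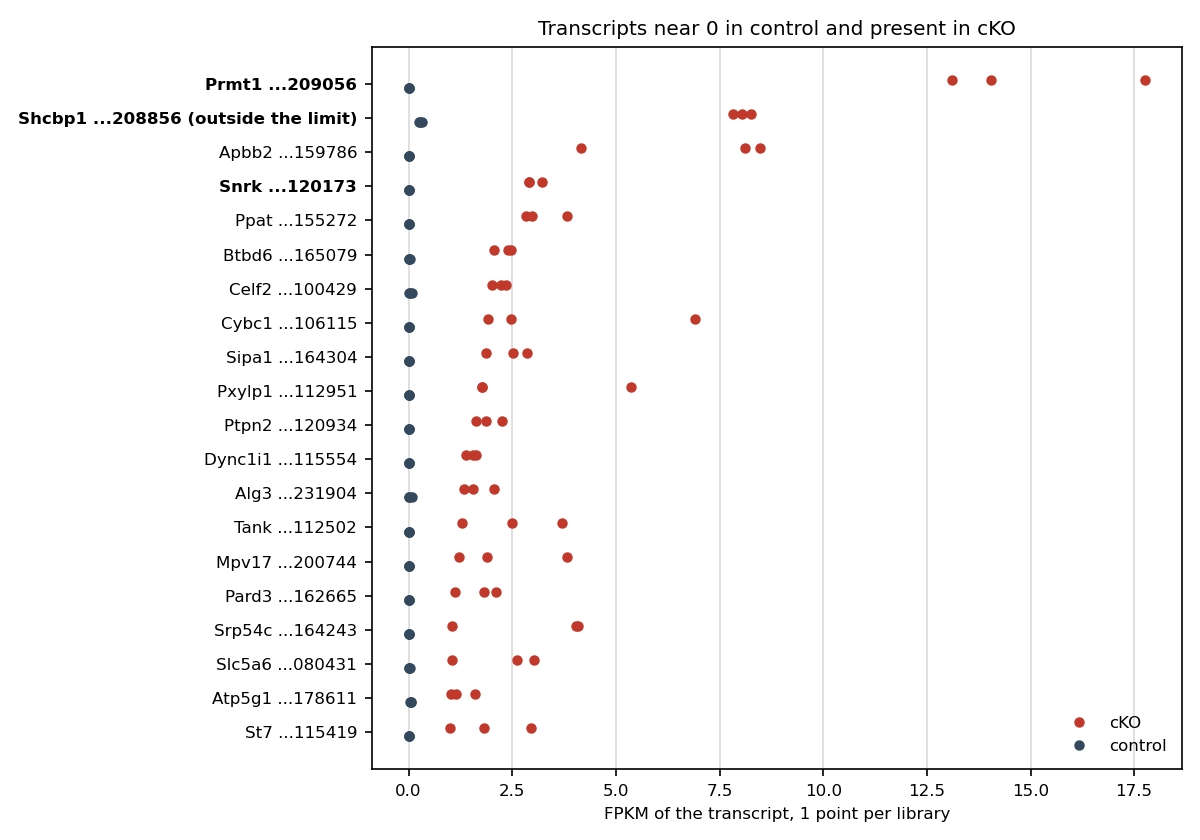
FPKM in each library of the 19 transcripts at or below 0.1 FPKM in every control library (dark) and at or above 1 FPKM in every cKO library (red), with Shcbp1 added although its controls lie between 0.241 and 0.316 FPKM. Prmt1, Shcbp1 and Snrk are in bold and lie among the rows with the highest minimum in cKO.

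The share of the gene that a transcript holds was compared in the same way over the 56962 transcripts of genes with at least 2 FPKM in both groups. In 518 of them (0.909%) the share was at least 10 percentage points higher in cKO with separate groups, and in 439 (0.771%) at least 10 points lower. All 3 switched transcripts are among the 518, and they were chosen for such a difference. A larger mean rise was found for 13 transcripts in the case of Snrk, for 68 in the case of Shcbp1 and for 1228 in the case of Prmt1.

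Profiles across the 6 libraries were compared by Pearson's r of log2(FPKM + 0.5), which here mostly follows the difference between the groups. The profiles of the Shcbp1 and Snrk switched transcripts were closest to each other, at r = 0.999 over 6 libraries. Next to Shcbp1 came Paxx ENSMUST00000114261, of a DNA repair protein, and next to both Tnfsf9 ENSMUST00000039490, of a TNF family ligand. Neither was near 0 in control, since r does not measure the size of a difference. Paxx ranged from 2.17 to 2.27 FPKM in cKO and from 0.947 to 1.03 FPKM in control. Tnfsf9 ranged from 5.53 to 5.88 FPKM in cKO and from 2.93 to 3.06 FPKM in control. After Tnfsf9, Snrk was closest to Ppat ENSMUST00000155272, which was at most 0.0205 FPKM in control. Closest to Prmt1 was Dync1i1 ENSMUST00000115554, an intermediate chain of dynein, at 1.38, 1.64 and 1.55 FPKM in cKO 1 to 3 and listed at 0 in control 1 to 3. Between 370 and 420 transcripts of other genes had r above 0.95 with each of the 3.

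Genes related to each of the 3 were compared at the level of gene sums by limma over all 14080 genes, with Benjamini-Hochberg adjustment. In that fit 1070 genes were higher in cKO (7.6%) and 643 lower (4.57%), 12.2% in all, with a median log2 change of 0.05. Under median-of-ratios scaling 48.4% of the called genes were higher, and under quantile normalization 47.5%, against 62.5% here. Under quantile normalization the median log2 changes of the 3 lists given next were 0.098 for arginine methylation, 0.12 for SHC and cytokinesis and 0.10 for AMPK-related kinases, beside 0.02 for all genes.

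Of 18 measured genes of arginine methylation, 3 rose, 1 fell and 14 did not pass, with a median log2 change of 0.16. The passing genes are 22.2% of the list, beside 12.2% of all genes tested. At a limma unadjusted p under 0.05, 9 of the list were higher and 1, Btg1, was lower. Of all genes, 19.5% were higher and 10.1% lower at that limit. Prmt2, another arginine methyltransferase, stood at 16.1, 18.6 and 15.7 FPKM in cKO 1 to 3 and at 12.3, 11.8 and 12.0 FPKM in control 1 to 3. Prmt2 rose, with a log2 change of 0.46 (limma adjusted p = 0.0113, SE 0.0803). Prmt5, which makes symmetric dimethyl marks, stood at 25.0, 25.5 and 25.6 FPKM in cKO 1 to 3 and at 20.6, 20.3 and 22.0 FPKM in control 1 to 3 (log2 change 0.27, limma adjusted p = 0.0276).

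The PRMT1-binding proteins Btg1 and Btg2 moved in opposite directions. Btg1 stood at 15.7, 16.2 and 18.2 FPKM in cKO 1 to 3 and at 23.2, 23.9 and 22.2 FPKM in control 1 to 3 (log2 change -0.46, SE 0.0744, limma adjusted p = 0.00850). Btg2 stood at 12.8 ± 1.65 FPKM in cKO and 8.95 ± 0.0800 FPKM in control (SD, n = 3 each; limma adjusted p = 0.0195). Carm1, Prmt3, Prmt6, Prmt7 and Prmt9 did not pass, with limma adjusted p from 0.0588 to 0.741. Prmt2 did not pass without control 2 (limma adjusted p = 0.0545), Btg2 without cKO 3 or without control 1, 2 or 3 (0.0520 to 0.0772), and Prmt5 without any cKO library, control 1 or control 2 (0.0576 to 0.112). Prmt5 also did not pass under quantile normalization (0.0666), nor Btg2 with no filter on low values (0.0676). Of this list 2 genes passed without cKO 3 or control 1, and 1 without control 2.

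Of 21 tested genes of SHC adaptors and cytokinesis, 7 rose by limma (33.3%), 0 fell and 14 did not pass. Of all genes tested, 7.6% rose and 4.57% fell. The median log2 change of the list was 0.20. At an unadjusted p under 0.05, 12 were higher and 1, the SHC adaptor gene Shc4, was lower, against 19.5% higher and 10.1% lower of all genes. Birc5, a subunit of the chromosomal passenger complex, stood at 88.7, 76.8 and 89.6 FPKM in cKO 1 to 3 and at 60.3, 63.3 and 62.3 FPKM in control 1 to 3 (log2 change 0.45, SE 0.0731, limma adjusted p = 0.00871). Racgap1, the centralspindlin subunit, stood at 52.4 ± 1.59 FPKM in cKO and 40.2 ± 2.73 FPKM in control (SD, n = 3 each; limma adjusted p = 0.0116). The other centralspindlin subunit, Kif23, stood at 38.3 ± 0.884 FPKM in cKO and 32.8 ± 1.33 FPKM in control (limma adjusted p = 0.0474).

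Kif20a, a kinesin of the central spindle, Plk1, a mitotic kinase, Anln, an actin-binding protein of the cleavage furrow, and Grb2, an adaptor downstream of SHC1, completed the 7, with limma adjusted p of 0.00911, 0.0136, 0.0225 and 0.0259. Shc1 itself stood at 52.0 ± 1.79 FPKM in cKO and 51.2 ± 2.78 FPKM in control (limma adjusted p = 0.848). Shc3 and Shcbp1l, a relative of Shcbp1, lay under the level filter. The Shcbp1 gene sum, at 20.5 FPKM in cKO and 20.1 FPKM in control, overlapped between groups.

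Of this list 4 genes passed without cKO 1, 3 without control 1 and 2 without control 2, and 4 under quantile normalization. Kif23 did not pass when any 1 library was left out (limma adjusted p 0.0575 to 0.161), and it passed in 3 of 14 alternatives. It also did not pass with no filter (0.0667), under median-of-ratios scaling (0.0914), under quantile normalization (0.145) or with coding transcripts alone (0.0540). Racgap1 did not pass without control 1 or 2 (0.0542 and 0.0586), Plk1 without control 2 (0.0637), Anln without cKO 1 or 2 or control 1 or 2 (0.0508 to 0.0953), and Grb2 without cKO 1 or 3 or control 1 or 2 (0.0625 to 0.104). Kif20a did not pass with coding transcripts alone (0.0727), Anln under quantile normalization (0.0661), and Grb2 under quantile normalization (0.0577) or with no filter (0.0570).

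Of 25 tested AMPK-related kinases and their partners, 2 rose by limma (8%), 0 fell and 23 did not pass. That share is near the one over all genes tested, of which 7.6% rose and 4.57% fell. The median log2 change of the list was 0.19. At an unadjusted p under 0.05, 10 were higher and 1, the kinase gene Nim1k, was lower, against the same 19.5% and 10.1% of all genes. Hunk, a kinase of this family, stood at 2.56, 2.78 and 2.30 FPKM in cKO 1 to 3 and at 1.43, 1.41 and 1.39 FPKM in control 1 to 3 (log2 change 0.67, SE 0.116, limma adjusted p = 0.0109). Melk, a member that is high in dividing cells, stood at 14.9, 14.4 and 16.0 FPKM in cKO 1 to 3 and at 11.2, 11.3 and 12.8 FPKM in control 1 to 3 (log2 change 0.35, limma adjusted p = 0.0291). Stk11, which encodes LKB1, stood at 26.1 ± 0.797 FPKM in cKO and 23.1 ± 0.673 FPKM in control (limma adjusted p = 0.0981). Prkaa1, a catalytic AMPK subunit, stood at 17.4 ± 1.42 FPKM in cKO and 16.8 ± 0.149 FPKM in control (limma adjusted p = 0.754). Melk did not pass without cKO 1 or 3 or control 1 or 2 (limma adjusted p 0.0678 to 0.112), which leaves 1 called gene of this list in those 4 cases. With no filter on low values neither Hunk (0.0528) nor Melk (0.0708) passed. In that setting 10 genes of the list were higher and 2 lower at an unadjusted p under 0.05, against 10.8% higher and 6.24% lower of all 29510 genes.

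**Figure D5:**
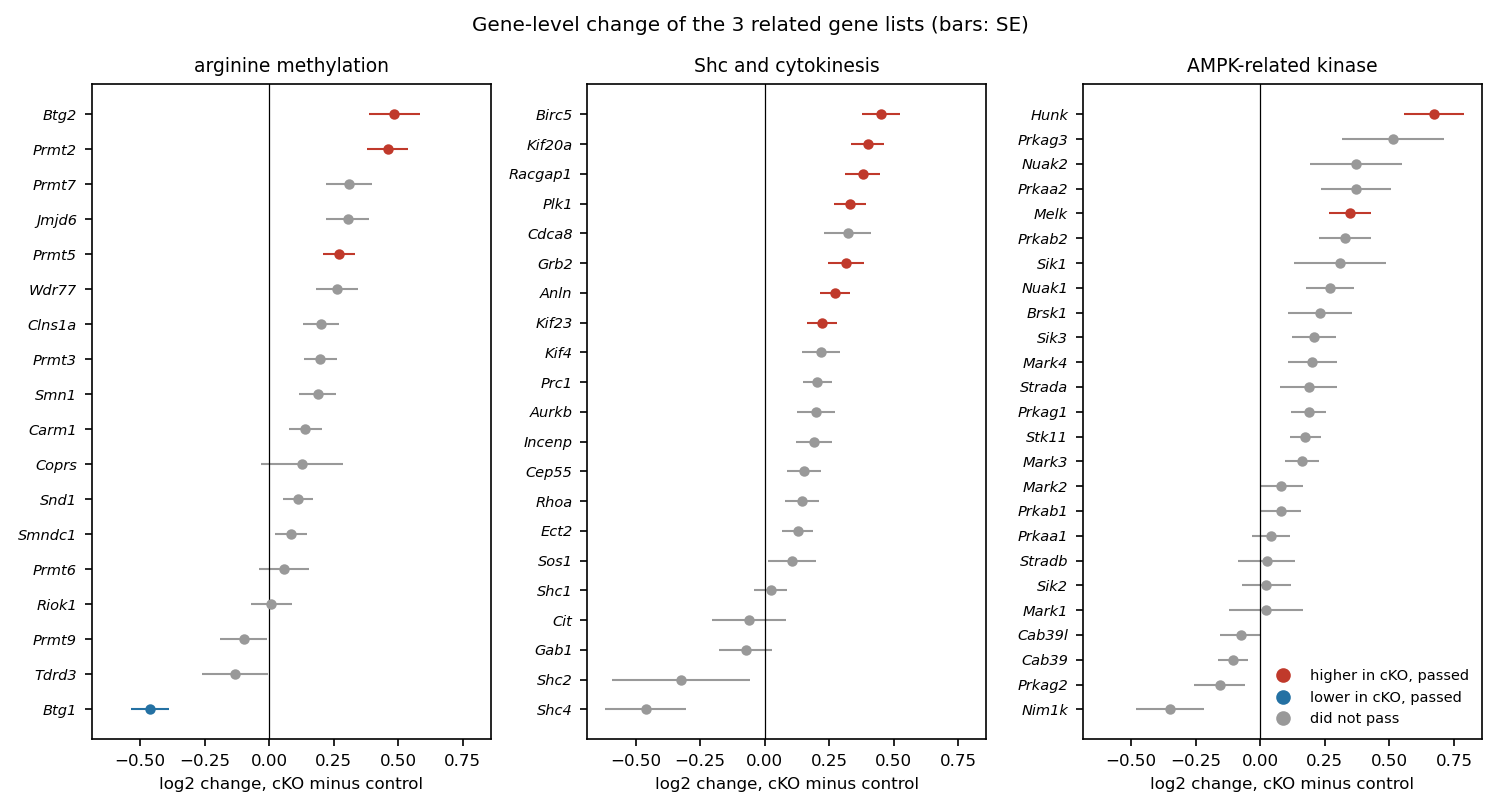
Log2 change (cKO minus control) of the gene sums with its SE for the tested genes of arginine methylation, of SHC adaptors and cytokinesis, and of AMPK-related kinases. Red points passed as higher and blue as lower (limma adjusted p under 0.05), and grey points did not pass. The passing counts are 4 of 18 (22.2%), 7 of 21 (33.3%) and 2 of 25 (8%), beside 12.2% of all genes tested.

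Nf2 itself stood at 17.5, 15.6 and 18.1 FPKM in cKO 1 to 3 and at 16.7, 16.6 and 14.1 FPKM in control 1 to 3, a sum over transcripts that does not check the deletion of an exon. All 10 chondrocyte markers were present, with a summed level of 2371 to 2968 FPKM in cKO and 5090 to 6267 FPKM in control. Most of that sum was Col2a1, with means of 1914 FPKM in cKO and 3758 FPKM in control. The size of the difference varied by marker. Mean Sox9 was 17.0 FPKM in cKO and 27.0 FPKM in control, and mean Snorc 14.4 and 95.2 FPKM. In bulk RNA, fewer cells of a type and less RNA per cell cannot be told apart. Summed fibroblast markers stood at 99.7 to 144 FPKM in cKO and 252 to 319 FPKM in control. Among them mean Dcn was 43.0 FPKM in cKO and 117 FPKM in control, and mean Lum 41.3 and 110 FPKM. Mean Pdgfra differed less, at 42.5 FPKM in cKO and 50.9 FPKM in control, and Dpt was at most 0.749 FPKM. Summed erythroid markers stood at 0 to 0.0279 FPKM in cKO and 0.224 to 1.91 FPKM in control. The erythroid markers Hba-a1 and Hbb-bs, both globin genes, were listed at 0 in all cKO libraries. The endothelial, glial and epidermal markers measured were all under 1 FPKM in every library. Summed macrophage, adipocyte and osteoblast markers overlapped between groups. The osteoblast sum was 46.5 to 212 FPKM in cKO and 31.3 to 51.4 FPKM in control, most of it Ibsp. Ibsp stood at 172, 44.7 and 207 FPKM in cKO 1 to 3 and at 48.5, 29.6 and 44.5 FPKM in control 1 to 3. Its overlap came through cKO 2. Sp7 also overlapped between groups, and Bglap was at most 0.789 FPKM. Among the adipocyte markers, Pparg alone stood at 17.2, 20.8 and 27.0 FPKM in cKO 1 to 3 and at 9.68, 8.76 and 9.92 FPKM in control 1 to 3, while Adipoq and Plin1 were at most 0.108 FPKM. Summed muscle markers stood at 2.13 to 3.43 FPKM in cKO and 0.895 to 1.70 FPKM in control, nearly all of it Acta1, with Myod1 and Ckm at most 0.0304 FPKM. The part of these differences in the switched transcripts was not tested.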

How the data were processed

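RNA of 6 libraries of mouse chondrocytes was sequenced. The deposited table gives FPKM for each transcript and library, computed by the authors, per the file headers. It also holds the authors' fold (ratio), log2 fold, p-value and q-value, deposited without the name of a test and not used here. The genome build is mm10, per the submitters' processing notes. The aligner and the estimator are not named in these sources. A short transcript's FPKM rests on few fragments, and transcripts that share exons are separated by an estimate.

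The 3 genes, the related gene lists and the limits were chosen with earlier results of these data known. The limit of 10 points on a share and the weighting by length were added after seeing the values. Structures and sequences came from GENCODE M21, in which 85004 of the 85239 matched transcripts have the same position.

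Gene sums of FPKM with a mean of at least 0.5 were tested with a pseudocount, as log2(FPKM + 0.5), so changes of low genes come out too small. Tests were 2-sided at an adjusted p under 0.05, in limma 3.58.1 under R 4.3.3, using its trend of variance on level. Named genes were, per list, up to 5 passing with the smallest p, plus family members. For the pattern they were, in each direction, the up to 5 transcripts of genes at 2 FPKM or more with the highest minimum, and per switched transcript the 3 with the highest r. A p-value here sets the difference between the groups against how far these libraries differ within a group. That spread may be partly technical. Alternatives were other pseudocounts, filters and scalings, coding transcripts, a replicate block and leaving out each library. Tables were handled with Python 3.11.15 and pandas 2.3.3.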

Additional observations from a re-analysis of the deposited data

How the results depend on the processing

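The share of the switched transcripts and the gene sums are descriptions, and leaving out 1 library moved the share difference to between 11.6 and 13.3 points for Prmt1, 37.0 and 39.3 for Shcbp1, and 50.4 and 51.4 for Snrk. Weighting by length, chosen after seeing the data, gave 3.96, 40.0 and 76.3 points for Prmt1, Shcbp1 and Snrk, and coding transcripts alone gave 54.6 points for Snrk. For Shcbp1, whose switched transcript is not coding, that alternative gives no share, and its gene sum had a log2 change of -0.66. Without 1 library the log2 change of the gene sum ranged from 0.55 to 0.66 for Prmt1, from -0.04 to 0.08 for Shcbp1 and from -0.14 to 0.13 for Snrk, so the sign of the last pair is not fixed.

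Over all genes, 662 passed without a filter and 537 to 1324 without 1 library, against 1713. The same-numbered samples did not deviate together (r from -0.06 to -0.02), which gives no sign that the numbers pair the samples. With so few libraries per group, this check cannot exclude a pairing. With the replicate block 1097 genes passed, and Prmt5, Kif23 and Anln did not (limma adjusted p 0.0634, 0.0939 and 0.0541). The lists had 1 to 5 (arginine methylation), 2 to 6 (SHC and cytokinesis) and 1 to 2 (AMPK-related) passing genes without 1 library. With quantile normalization 4 genes of SHC and cytokinesis passed, and of the AMPK-related genes 0 passed limma with no filter (10 higher and 2 lower at an unadjusted p under 0.05, against 10.8% higher and 6.24% lower of all genes) and 1 at a mean of at least 2 FPKM. At that last filter Hunk, with means of 2.55 FPKM in cKO and 1.41 FPKM in control, was too low to be tested. The cause of the other changes in these counts was not tested.

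The pattern of absence and presence held for 19 transcripts, for 37 with absence up to 0.5 FPKM, for 6 with presence from 2 FPKM, and for 38 to 47 without 1 library, where fewer values have to meet the limits. Depth is unknown, so no limit of detection can be given for a listed 0.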

Other observations

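The transcripts present in control and near 0 in cKO differed in kind from those with the opposite order. Of the 12, 9 belong to genes whose whole sum averaged at most 0.3 FPKM in cKO, against 0 of the 19 with the opposite order judged by their control mean. They include Zg16 and Tff3, which encode proteins secreted by intestinal goblet cells, Lypd8, a surface protein of colon epithelium, Sprr2a1, Plac8 and Gpx2, and the immunoglobulin genes Igkc and Iglv1. Zg16 ENSMUST00000051122 was listed at 0 in cKO 1 to 3 and stood at 4.43, 3.80 and 3.72 FPKM in control 1 to 3. Lypd8 ENSMUST00000013787 was listed at 0 in cKO 1 to 3 and stood at 5.78, 5.88 and 14.5 FPKM in control 1 to 3. Igkc ENSMUST00000103410 was listed at 0 in cKO 1 to 3 and stood at 3.23, 2.10 and 7.73 FPKM in control 1 to 3. These genes were named after their values were seen, and their part in the values of Prmt1, Shcbp1 and Snrk was not tested.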
